A study of Homo sapiens with 6 samples.

Results

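SH-SY5Y is a human neuroblastoma line, and neuroblastoma arises from the sympathetic branch of the neural crest. The 8 genes described here, PHOX2A, HAND1, HAND2, GATA2, GATA3, ISL1, TFAP2B and TBX2, encode transcription factors of the noradrenergic identity of such cells. They were selected by symbol from a table of 26372 gene symbols, and all 8 were found in it. That rule uses no measured value, but the 8 symbols were chosen with earlier results of these data known. Both groups carried a lentiviral short hairpin RNA under the U6 promoter. The shNC cells carried a control hairpin and are the control genotype of the labels. The shTDP43 cells carried a hairpin against TDP-43, the RNA-binding protein encoded by TARDBP, and are the TDP-43 knockdown genotype. Each group had 3 poly(A)-selected RNA libraries. The labels describe stable selection with puromycin for the knockdown cells and do not mention it for the controls. They name 1 hairpin against TDP-43, so what TDP-43 loss, an off-target effect, the selection and differences between infected populations each contributed cannot be told apart. Nothing in the labels ties the libraries of a group to separate cultures. The p-values therefore reflect the spread among these samples alone, which may be technical.

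Noradrenergic neuroblastoma cells are held in their state by a core regulatory circuit, a set of transcription factors that bind the enhancers of their own genes and of one another's. PHOX2A is a homeodomain factor that activates genes of noradrenaline synthesis. HAND1 and HAND2 are basic helix-loop-helix factors, which bind E-box motifs as dimers with E proteins. GATA2 and GATA3 are zinc finger factors needed for sympathetic neurons, ISL1 is a LIM-homeodomain factor, TFAP2B is an AP-2 factor of the neural crest, and TBX2 is a T-box factor that mostly represses transcription. During development, bone morphogenetic protein (BMP) signals from the dorsal aorta start this programme in migrating crest cells.

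The members lie on 7 chromosomes, so none but HAND1 and ISL1 share one. In RefSeq's annotation of GRCh38, PHOX2A is at chr11:72239077-72244176, HAND1 at chr5:154474972-154478227, HAND2 at chr4:173526091-173530229 and GATA2 at chr3:128479422-128493201, all on the minus strand. GATA3 is at chr10:8045333-8075198, ISL1 at chr5:51383448-51394730, TFAP2B at chr6:50818355-50847619 and TBX2 at chr17:61399843-61409466, all on the plus strand. The ratio of HAND2 to HAND1 changed in these cells, and an antisense RNA, HAND2-AS1, has a start close to that of HAND2, so the bases before the start of both HAND genes are shown, with those of ISL1 for comparison. Each is printed 5′ to 3′ on the strand of the gene, from RefSeq's GRCh38.p14. HAND1 and ISL1 are given as the 250 bases before the start, at chr5:154478228-154478477 on the minus strand and chr5:51383198-51383447 on the plus strand. RefSeq lists starts of HAND2-AS1 on the plus strand at 173528600, inside HAND2, and at 173530458, upstream of it. HAND2 is given as the 228 bases between its own start and the upstream start of HAND2-AS1, at chr4:173530230-173530457 on the minus strand. Capitals mark matches on either strand to the GATA motifs TGATAA and AGATAA, the homeodomain motif TAATTA and the AP-2 motif GCCNNNGGC.
HAND2: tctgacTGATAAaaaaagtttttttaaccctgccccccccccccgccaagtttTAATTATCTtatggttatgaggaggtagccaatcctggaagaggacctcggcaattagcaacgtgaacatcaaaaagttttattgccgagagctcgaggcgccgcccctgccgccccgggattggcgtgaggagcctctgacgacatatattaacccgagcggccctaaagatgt
HAND1: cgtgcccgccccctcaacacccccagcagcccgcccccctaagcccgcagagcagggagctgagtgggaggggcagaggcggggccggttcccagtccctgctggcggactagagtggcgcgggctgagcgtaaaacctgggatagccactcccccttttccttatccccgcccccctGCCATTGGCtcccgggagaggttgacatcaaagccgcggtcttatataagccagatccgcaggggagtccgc
ISL1: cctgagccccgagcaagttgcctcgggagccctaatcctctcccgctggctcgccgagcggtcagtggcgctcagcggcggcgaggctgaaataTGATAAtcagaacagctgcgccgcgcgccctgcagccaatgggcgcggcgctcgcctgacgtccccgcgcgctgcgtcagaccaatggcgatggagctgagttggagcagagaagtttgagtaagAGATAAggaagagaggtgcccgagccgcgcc

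The HAND2 sequence held both GATA motifs, beginning 222 and 172 bases before the start, and the second of them overlaps the TAATTA match at 175 bases. ISL1 also held both GATA motifs, at 156 and 31 bases, while HAND1 held neither and had an AP-2 match at 72 bases. Of 35116 windows of 250 bases before RefSeq starts, 6.66% held TGATAA, 9.17% AGATAA, 4.35% TAATTA and 19.8% GCCNNNGGC. HAND2 had a GC content of 50.9% in this stretch, against 67.2% in HAND1, 65.2% in ISL1 and a median of 58.0% over all windows. Among the 7 members with such a window, HAND2 and ISL1 were the genes with a GATA match. The T-box motif GGTGTGA, searched on both strands, matched in none of them. A match is a run of letters in this window and says nothing of binding in these cells.

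TARDBP itself stood at 56.1, 56.2 and 56.6 FPKM in shNC and at 36.0, 33.1 and 34.8 FPKM in shTDP43, where FPKM is the number of sequenced fragments scaled to gene length and library size. Its message thus fell to 61.5% of control (limma adjusted p = 2.84e-06). An exact two-sided permutation test of these 6 values gave p = 0.1, the smallest that 3 against 3 libraries can reach. Genes with a value above 0 numbered 18217 to 18334 per library in shNC and 17945 to 18025 in shTDP43. The table holds no read totals. Relative depth, read from the steps of low values, was 1.16 to 1.28 in shNC and 1 to 1.12 in shTDP43, with the shallowest library set to 1. The lowest value of any member in any library was 14.4 FPKM, for TBX2. Among markers of the sympathetic line, DBH, the enzyme that makes noradrenaline, was at 170 ± 1.86 FPKM in shNC (SD, n = 3). TH, the rate-limiting enzyme of catecholamine synthesis, was at or near 0 in every library, the highest value being 0.207 FPKM. The neuronal filament gene PRPH was also low, at 0.288 to 1.22 FPKM.

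Of the 8 factors, 5 rose and 2 fell in shTDP43, and GATA2 did not pass the test. A gene was called at an adjusted p under 0.05 in a limma fit over the 13263 genes whose mean FPKM was 1 or more. Calls were common in this comparison: 38.1% of tested genes passed, 18.5% as higher and 19.6% as lower. Among tested genes at or above the control level of TBX2, the lowest member, 46.9% passed. The libraries of the 2 groups did not overlap in any of the 8 members, against 50.7% of tested genes without overlap. The members' median log2 difference was 0.15, and their median size regardless of direction was 0.25, against 0.00 and 0.12 over all tested genes. The 8 genes were chosen with earlier results of these data known, so these shares are a description and not a test of the group. RNA from bulk cells cannot separate less RNA per cell from fewer cells that express a gene.

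**Figure D1:**
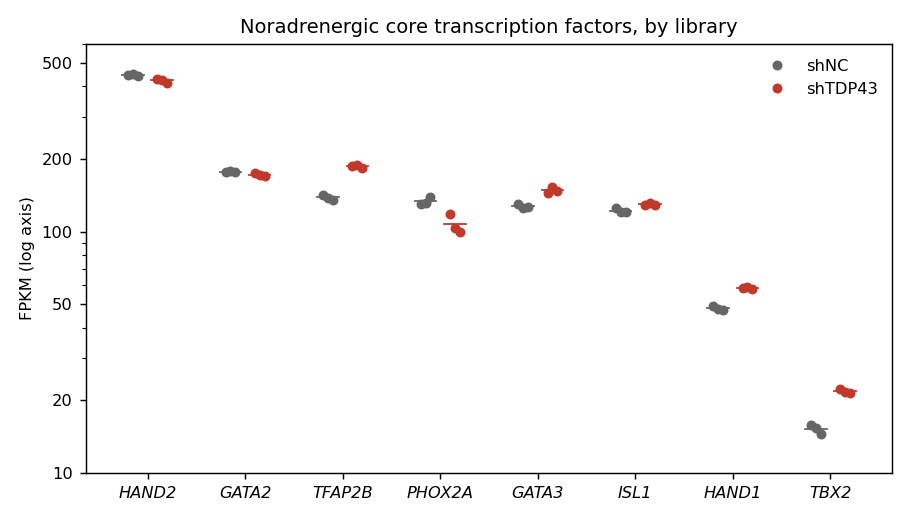
FPKM on a log axis for each of the 8 factors in the 3 shNC libraries (grey) and the 3 shTDP43 libraries (red), with short lines at the group means and genes ordered by their shNC mean. HAND2 is highest in both groups, TFAP2B moves above GATA2, and PHOX2A goes from rank 4 to rank 6 with a wide spread in shTDP43.

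TBX2 and TFAP2B rose most. TBX2 had 15.7, 15.3 and 14.4 FPKM in the shNC libraries and 22.2, 21.7 and 21.5 FPKM in the shTDP43 libraries. The lowest knockdown library thus lay well above the highest control library. The rise was to 144% of control, a log2 difference of 0.50 (SE 0.04; 95% interval 0.41 to 0.58; limma adjusted p = 4.06e-05). Only 4.91% of tested genes changed by as much in either direction on this scale. TFAP2B, which binds GC-rich AP-2 sites and helps set sympathetic neuron number and maturation, had 142.5, 138 and 135.5 FPKM in shNC. It had 188, 189 and 184 FPKM in shTDP43, with all knockdown libraries above all controls. This was a rise to 135% of control and a log2 difference of 0.43 (SE 0.03; 95% interval 0.37 to 0.49; limma adjusted p = 1.01e-05). In absolute terms, its gain of 48.1 FPKM was the largest of the 8.

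PHOX2A fell most. It had 131, 132 and 139 FPKM in shNC, and 119, 103.5 and 99.8 FPKM in shTDP43. All 3 knockdown libraries were below the controls, but shTDP43 replicate 1 stood apart from the other two. The mean fell to 80.1% of control, a log2 difference of -0.32 (SE 0.06; 95% interval -0.46 to -0.18; limma adjusted p = 0.00367). PHOX2A was the most variable member, with a coefficient of variation of 9.28% in shTDP43, where the other 7 were between 1.26% and 3.02% and the median tested gene was at 4.41%. Without that library the log2 difference was -0.39, and its adjusted p stayed under the threshold in every alternative run (at most 0.0278).

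Of the basic helix-loop-helix pair, the less abundant HAND1 rose and the more abundant HAND2 fell slightly, so that their levels came closer. HAND1 had 49.2, 47.9 and 47.4 FPKM in shNC and 58.6, 59.1 and 57.7 FPKM in shTDP43, a rise to 121% of control with no overlap between the groups. Its log2 difference was 0.27 (SE 0.02; limma adjusted p = 9.88e-05). HAND2, the most abundant factor of the 8, had 446.8, 449 and 443 FPKM in shNC and 431, 424 and 415 FPKM in shTDP43. These groups also stood clear of each other, though by a margin that is small beside the level. HAND2 fell to 94.9% of control, a log2 difference of -0.08 (SE 0.02; limma adjusted p = 0.0303). That call was lost in 9 of 14 alternatives, with adjusted p values of up to 0.162. It was lost without shNC replicate 1, 2 or 3 (0.0658, 0.096 and 0.0536) and without shTDP43 replicate 2 or 3 (0.0633 and 0.102).

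The ratio of both HAND messages within a library is not altered by a constant scaling factor per library. HAND2 exceeded HAND1 by 9.09, 9.37 and 9.36 times in shNC and by 7.36, 7.18 and 7.20 times in shTDP43. The mean log2 ratio was 3.21 ± 0.03 in shNC and 2.86 ± 0.02 in shTDP43 (SD, n = 3 each), a difference of -0.36 (-0.34 under quantile normalization, which is not a constant factor). The groups did not overlap, and the exact two-sided permutation p was 0.1, the smallest possible here. HAND2 remained by far the more abundant of the pair.

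GATA3 rose and GATA2 did not pass the test. GATA3 had 130.05, 126 and 127 FPKM in shNC and 145, 154 and 148 FPKM in shTDP43, with no overlap. It reached 117% of control (log2 difference 0.22, SE 0.03; limma adjusted p = 0.000553). GATA2 had 177.1, 177.8 and 177.5 FPKM in shNC, the tightest control values of any member, and 175, 172 and 169.7 FPKM in shTDP43. Its log2 difference was -0.04 (95% interval -0.09 to 0.01; limma adjusted p = 0.154), and under quantile normalization it was 0.01, so no direction is given. The ratio of GATA2 to GATA3 was 1.362, 1.411 and 1.396 in shNC and 1.210, 1.122 and 1.146 in shTDP43. On the log2 scale it went from 0.47 ± 0.03 to 0.21 ± 0.06 (SD, n = 3 each; exact two-sided permutation p = 0.1, the smallest possible).

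**Figure D2:**
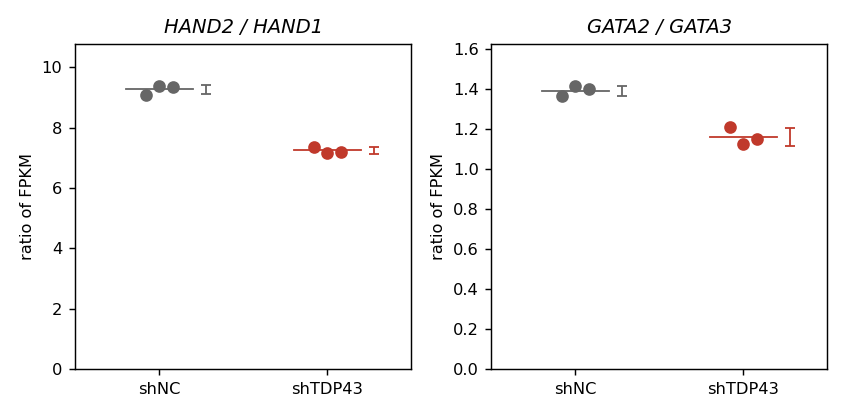
Ratio of FPKM within each library for HAND2 over HAND1 (left) and GATA2 over GATA3 (right), with points for the 3 libraries of a group, a line at the mean and an error bar of 1 SD. Both ratios are lower in every shTDP43 library, 7.18 to 7.36 against 9.09 to 9.37 for HAND and 1.122 to 1.210 against 1.362 to 1.411 for GATA.

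ISL1, which works with the GATA and HAND factors at shared enhancers, rose slightly. It had 125.5, 120.4 and 120.4 FPKM in shNC and 128.5, 131.9 and 128.5 FPKM in shTDP43. The groups were separate, but shNC replicate 1 lay closer to the knockdown libraries than to its own group. ISL1 reached 106% of control (log2 difference 0.09, SE 0.02; limma adjusted p = 0.027). The call was lost without shNC replicate 2 or 3 and without shTDP43 replicate 2 or 3, with adjusted p values of 0.0912, 0.0804, 0.08 and 0.0523.

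**Figure D3:**
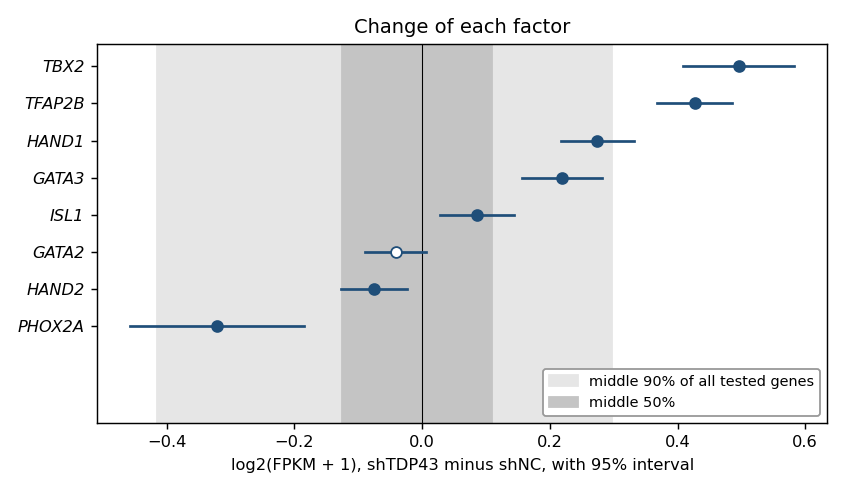
Difference in log2(FPKM + 1), shTDP43 minus shNC, for each factor with its 95% interval from limma; filled points passed the test and the open point (GATA2) did not. Grey bands hold the middle 50% and 90% of all 13263 tested genes; TBX2 and TFAP2B lie above the wider band, PHOX2A lies inside it and HAND2, GATA2 and ISL1 lie inside the narrow one.

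Because FPKM is scaled to gene length, the levels of the factors were set in order. The annotation used and reads of antisense partners could also move a gene in this order, which was not tested. In shNC the order was HAND2, GATA2, TFAP2B, PHOX2A, GATA3, ISL1, HAND1 and TBX2. Means ran from 446 FPKM for HAND2 to 15.2 FPKM for TBX2, and TFAP2B and PHOX2A were the only neighbours whose ranges overlapped. In shTDP43 the order was HAND2, TFAP2B, GATA2, GATA3, ISL1, PHOX2A, HAND1 and TBX2, with no overlap between neighbours. PHOX2A went from 134 ± 4.59 to 107 ± 9.96 FPKM and passed below GATA3 and ISL1, whereas TFAP2B went from 139 ± 3.54 to 187 ± 2.85 FPKM and passed above GATA2 (SD, n = 3). These changes of rank were not tested. By level among all tested genes in shNC, the members other than TBX2 ranged from the 90.2 percentile for HAND1 to the 98.8 percentile for HAND2, and TBX2 was at the 62.2 percentile.

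Summed over the 8 factors, the messages came to 1218, 1206 and 1205 FPKM in shNC and to 1267, 1256 and 1224 FPKM in shTDP43. The totals did not overlap, and the exact two-sided permutation p was again 0.1. The make-up of the sum shifted as well. HAND2 supplied 36.9% ± 0.277 of it in shNC and 33.9% ± 0.128 in shTDP43 (SD, n = 3). PHOX2A went from 11.1% ± 0.425 to 8.59% ± 0.673, and TFAP2B from 11.5% ± 0.230 to 15.0% ± 0.128. The share of ISL1, at 10.1% ± 0.183 and 10.4% ± 0.210, overlapped between the groups (exact two-sided permutation p = 0.2).

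Several members have an antisense partner whose reads could be mixed with theirs, because the libraries were made with a directional kit but the sources used here do not give whether strand was used in counting. HAND2-AS1 overlaps HAND2 and had 87.3, 94.3 and 96.8 FPKM in shNC and 101.7, 94.3 and 97.3 FPKM in shTDP43. These ranges overlapped, and the RNA did not pass the test (105% of control, limma adjusted p = 0.192), although HAND2 fell. GATA2-AS1 starts 3998 bases from the start of GATA2, inside the gene, and rose to 126% of control. It had 6.44 ± 0.490 FPKM in shNC and 8.11 ± 1.16 in shTDP43 (SD, n = 3; limma adjusted p = 0.0388). GATA3-AS1 stood at 97.0% of control (limma adjusted p = 0.588) beside the rise of GATA3. TBX2-AS1 starts 237 bases from TBX2 on the other strand without overlapping it, and was at 94.5% of control (limma adjusted p = 0.201) while TBX2 rose to 144%. INPPL1, a phosphatase gene whose end overlaps that of PHOX2A, was at 110% of control (limma adjusted p = 0.0511). The part of shared reads in these values was not tested.

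The 8 messages differ in build. HAND1 and HAND2 have 2 exons and PHOX2A has 3 in the longest GENCODE coding transcript, against a median of 9 over 11600 tested genes. PHOX2A and TBX2 transcripts are rich in GC, at 66.5% and 66.6% (98.1 and 98.2 percentile), and PHOX2A fell while TBX2 rose. TDP-43 binds UG repeats, and the run GTGTGT, which stands for GUGUGU in the message, occurred in the mature transcript of 4 of the 8 factors and in 60.7% of tested genes. TFAP2B had 3 matches, and PHOX2A, GATA2 and GATA3 had 1 each. Overlapping matches were counted separately, so those of TFAP2B need not be separate sites. HAND1, HAND2, ISL1 and TBX2 had none. Genes with a match thus included 1 that fell, 1 that did not pass and 2 that rose. Introns, where much TDP-43 binding lies, were not analysed here.

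Other transcription factors of the noradrenergic state also moved in both directions. Of 17 tested genes in this list 9 rose, 5 fell and 3 did not pass. Among all tested genes, 18.5% rose and 19.6% fell. The list had a median log2 difference of 0.20 against 0.00 over all tested genes. The count that fell was 2 without shNC replicate 1 or shNC replicate 2, and 3 without shTDP43 replicate 2 or 3, under quantile normalization or with no trend. DACH1, a corepressor of the retinal determination family, had 4.61 ± 0.408 FPKM in shNC and 9.70 ± 0.122 in shTDP43, and rose to 211% of control (SD, n = 3; limma adjusted p = 1.44e-05). SOX11, a SoxC factor of developing neurons, rose to 167%. Among the falls, MEIS1, a homeodomain partner of HOX proteins, had 48.3, 46.1 and 47.0 FPKM in shNC and 30.6, 33.5 and 31.7 FPKM in shTDP43. The groups did not overlap, and MEIS1 fell to 67.7% of control (limma adjusted p = 1.77e-05).

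Of 19 tested cofactors through which the members act, 8 rose, 2 fell and 9 did not pass (median log2 difference 0.10). The shares over all tested genes were 18.5% higher and 19.6% lower. LIM-domain proteins of the LMO family and their LDB adaptors bridge GATA, LIM-homeodomain and helix-loop-helix factors. LMO3 had 12.2 ± 0.572 FPKM in shNC and 17.2 ± 0.720 in shTDP43, and rose to 141% of control (SD, n = 3; limma adjusted p = 0.000169). LDB2 rose to 161%, from a low mean of 1.41 FPKM in shNC to 2.26 FPKM in shTDP43. LDB1 had 30.9, 30.1 and 29.4 FPKM in shNC and 41.9, 39.3 and 39.0 FPKM in shTDP43, and rose to 133% of control (limma adjusted p = 8.91e-05), while SSBP2, which stabilises LDB proteins, rose to 136%. Not all of these families rose. LMO1, SSBP3 and SSBP4 did not pass, at 107%, 104% and 89.2% of control (limma adjusted p = 0.141, 0.21 and 0.146). Of the E proteins that pair with HAND factors, TCF3 and TCF12 rose to 116% and 115% of control and TCF4 fell to 92.8%. ID2, which keeps E proteins off DNA, fell to 91.5%. Of these falls 0 were called under quantile normalization and 1 without shTDP43 replicate 3. ID1, ID3 and ID4 did not pass, at 101%, 98.3% and 115% of control (limma adjusted p = 0.602, 0.796 and 0.136). KCTD15 and KCTD1, inhibitors of AP-2 factors, rose to 126% and 111% beside TFAP2B (limma adjusted p = 0.000893 and 0.0424). Cofactors that rose numbered 7 with the replicate block, with a mean of at least 5 FPKM and without both libraries low in SNORD3A. They also numbered 7 without shNC replicate 2 or 3 and without shTDP43 replicate 2 or 3. Under quantile normalization they numbered 9.

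Genes of noradrenergic function, on which these factors act, were split: 7 of 19 tested genes rose, 10 fell and 2 did not pass (median log2 difference -0.13). Among all tested genes, 18.5% rose and 19.6% fell. In this list the count that rose was 5 with no trend and without shNC replicate 1, 2 or 3. It was also 5 without shTDP43 replicate 1 or 3 and without both libraries low in SNORD3A. The count that fell was 8 without shNC replicate 3 and without shTDP43 replicate 2 or 3. Among enzymes of catecholamine synthesis, DBH, an established PHOX2A target, had 168, 171 and 170.3 FPKM in shNC and 193, 186 and 192.6 FPKM in shTDP43. It rose to 112% of control (limma adjusted p = 0.000936) while PHOX2A fell. A link between these changes was not tested. DDC, the decarboxylase that makes dopamine, rose to 127% (limma adjusted p = 0.000188). GCH1 and SLC18A2 of the same list did not pass, at 102% and 103% of control (limma adjusted p = 0.399 and 0.819). The noradrenaline transporter gene SLC6A2 fell to 84.5% of control (limma adjusted p = 0.0015). Larger changes were those of the secretory granule genes, with CHGA up to 175% and CHGB down to 33.6%, of the receptor gene RET, down to 42.1%, and of the Notch ligand relative DLK1, up to 128%.

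BMP signalling, upstream of the circuit in development, had 2 of 17 tested genes higher, 6 lower and 9 not passing (median log2 difference -0.06). Over all tested genes, 18.5% were higher and 19.6% lower. BMPR1B, a type I receptor, had 25.2 ± 0.120 FPKM in shNC and 52.1 ± 1.73 in shTDP43, and rose to 207% of control (SD, n = 3; limma adjusted p = 2.05e-07), and the ubiquitin ligase gene SMURF2 to 109.8%. The count that rose was 1 when any library but shTDP43 replicate 3 was left out, and the count that fell was 3 with a mean of at least 5 FPKM or without both libraries low in SNORD3A (shNC 1 and shTDP43 3). The secreted BMP antagonist GREM1 fell to 15.5% of control, from a low mean of 3.13 FPKM in shNC to 0.484 FPKM in shTDP43. SMAD1, which carries the signal to the nucleus, fell to 65.4%. Factors of the opposing mesenchymal state had 4 of 17 tested genes higher and 5 lower (median -0.01), beside 18.5% and 19.6% of all tested genes. In that list EGR3 rose to 247% of control, from a low mean of 1.46 FPKM in shNC to 3.62 FPKM in shTDP43. TWIST1 rose to 145%, from 184 to 267 FPKM. It was already at the 97.7 percentile of level in shNC, while only 17 of the 36 listed genes reached the level tested. Whether its rise marks a mesenchymal gain was not tested. SNAI2 fell to 60.9% and NOTCH2 to 69.8%.

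**Figure D4:**
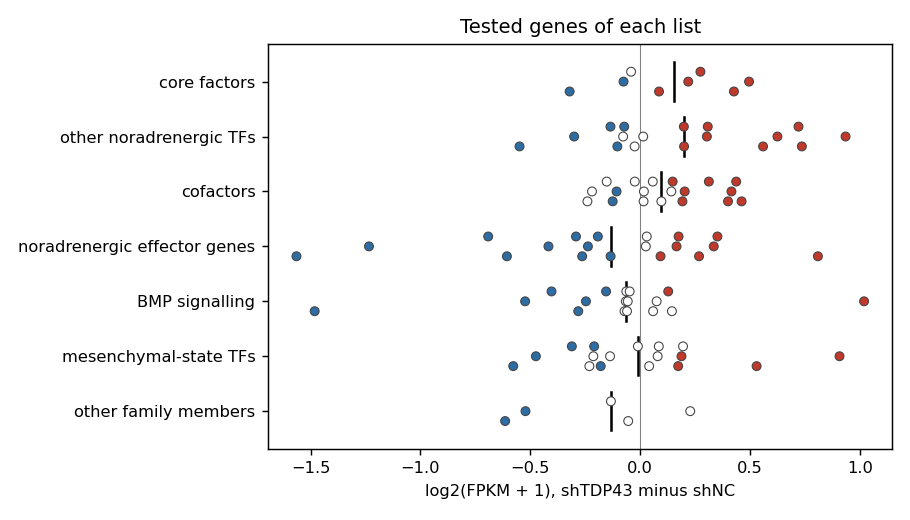
Difference in log2(FPKM + 1), shTDP43 minus shNC, for every tested gene of 7 lists, with red for genes that rose, blue for genes that fell, white for genes that did not pass, and a black line at the median of each list. The core factors span -0.32 to 0.50, and the effector genes spread more widely, from -1.56 (CHGB) to 0.81 (CHGA).

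Most relatives of the members were hardly detected. Of 20 other GATA, AP-2, ISL and T-box genes 5 reached the level tested, of which 2 fell and 0 rose. Among all tested genes, 19.6% fell and 18.5% rose, and 5 genes are too few to set against these shares. TBX3, the closest relative of TBX2, had 74.3, 75.3 and 75.0 FPKM in shNC and 48.3, 48.3 and 49.1 FPKM in shTDP43. It thus fell to 64.9% of control (log2 difference -0.61, SE 0.02; limma adjusted p = 5.03e-07) where TBX2 rose, and it remained the more abundant of the pair. GATA4 had 9.61 ± 0.558 FPKM in shNC and 6.40 ± 0.524 in shTDP43, and fell to 66.5% of control (SD, n = 3; limma adjusted p = 0.000504). TFAP2A, the AP-2 gene that shares neural crest expression with TFAP2B, was at 0.110 FPKM or less in every library. GATA6 and TFAP2C were listed at 0 in all 6.

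For 7 of the factors, the gene with the most similar profile over the 6 libraries is given. It was sought among 111 others in these lists, by the root mean square difference of log2(FPKM + 1) after each gene's mean was removed. SATB1 was nearest to HAND1 (0.0208), and SMAD4 to both HAND2 (0.0140) and GATA2 (0.00899). TCF12 was nearest to GATA3 (0.0288), ELK4 to ISL1 (0.0108), SSBP2 to TFAP2B (0.0312) and LMO3 to TBX2 (0.0362). The next nearest were GATA3 to HAND1, SOX4 to HAND2, HAND2 to GATA2, PBX3 to GATA3, MEF2D to ISL1, LDB1 to TFAP2B and TFAP2B to TBX2. Such likeness over 6 libraries rests mostly on the difference between 2 groups and is given as a description.

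Most markers of other cells were low, but not all. PMP22 had a mean of 16.8 FPKM in shNC, above TBX2 at 15.2 FPKM, and the sensory marker TLX3 had 8.11 FPKM. Of 9 Schwann and glial markers 2 were tested and both fell, PMP22 to 36.5% and S100B to 51.5% of control, and the list summed to between 19.8 and 21.3 FPKM in shNC and between 9.23 and 9.45 FPKM in shTDP43. Its defining factors SOX10 and FOXD3 were at or under 0.368 FPKM. Of 7 sensory neuron markers, 3 were tested and NEUROD1 rose (sums of 10.4 to 12.3 FPKM in shNC and 10.6 to 12.6 in shTDP43). Of 5 melanocyte markers 1 was tested and did not pass (2.94 to 3.32 and 3.01 to 4.44 FPKM). Of 8 blood, endothelial and epithelial markers 2 were tested and KRT18 fell (3.79 to 4.71 and 1.91 to 2.99 FPKM), with HBB at 0 and PTPRC and PECAM1 at or near 0. The part of such cells in the members' changes was not tested. Of 8 sympathetic markers 6 were tested, of which CHGA and DBH rose and CHGB, STMN2, ELAVL4 and GAP43 fell (sums of 1730 to 1745 FPKM in shNC and 1259 to 1287 FPKM in shTDP43). For all these marker lists, the shares over all tested genes were 18.5% higher and 19.6% lower.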

How the data were processed

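RNA was measured in 6 libraries of SH-SY5Y cells, 3 in each of 2 groups taken from the sample titles. The authors deposited FPKM values per gene symbol. Per the submitters' processing notes, the tools were TopHat2 2.1.0, SAMtools and Cuffdiff 2.2.1 and the build hg38. The sources used here do not give the annotation, how libraries were scaled, or whether counting used strand or multiply mapped reads. With no counts, absolute depth is unknown.

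Values were analysed as log2(FPKM + 1) in R 4.3.3 with limma 3.58.1, in a model with group as its only term and variance moderation with a trend. The test was two-sided with Benjamini-Hochberg adjustment over the 13263 genes whose mean FPKM was 1 or more, and 13109 genes were below that. The pseudocount understates changes of low genes, so percentages are ratios of mean FPKM. No pair of libraries held identical values.

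Members and lists were chosen with earlier results of these data known. DBH, DDC, TH, PRPH, SLC6A2, LDB1, SSBP2, TCF3, TCF12, KCTD1, KCTD15, TFAP2A, GATA6 and TFAP2C were added after their values were seen. So were LMO1, SSBP3, SSBP4, ID1, ID3, ID4, GCH1 and SLC18A2. Otherwise the 2 largest rises and falls past the threshold are named from each list. An item that this rule and the likeness of profiles would name is not reported here. Locations and promoter sequences came from RefSeq (7 of 8 members matched a promoter), strands and transcripts from GENCODE's GRCh38 annotation, which may differ from the authors'. Promoter matches were sought for GATA, E-box, homeodomain, AP-2 and T-box motifs. The E-box CANNTG occurred in 61.8% of all windows and is not marked.

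Alternatives changed the pseudocount, the filter, the scaling, the trend, the block and the libraries used.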

Additional observations from a re-analysis of the deposited data

How the results depend on the processing

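TBX2, TFAP2B, HAND1, GATA3 and PHOX2A kept their direction and their call in all 14 alternatives: a pseudocount of 0.1, no filter or a mean of at least 5 FPKM, quantile normalization, median centring, no trend, a replicate block, each library left out in turn, and the pair of libraries with little SNORD3A, an abundant nucleolar RNA, left out (replicate 1 of shNC, replicate 3 of shTDP43). The number of members lower fell from 2 to 1 with quantile normalization, with no trend, with the replicate block and without both low-SNORD3A libraries, and with single libraries left out it was 1 to 2. Wherever it was 1, the call lost was that of HAND2. ISL1 was lost with no trend and the block as well (adjusted p 0.0909 and 0.0557), which left 4 members higher. The log2 difference of GATA2, -0.04 as reported, reversed to 0.012 under quantile normalization (adjusted p 0.66). Tested genes called went from 5054 to 3323 without both low-SNORD3A libraries, with fewer libraries for the test, and to 4502 with the replicate block. The replicate numbers are not said to mark a shared culture, so the main fit has no block. Deviations of same-numbered libraries correlated at -0.0683, 0.0644 and 0.112 across genes, against -0.199 to 0.135 for differently numbered ones. With 3 libraries per group, these values cannot show whether cultures were shared. Of 168 recomputed list counts, 148 were within 1.5 times the count reported, 18 were lower and 2 higher by more. Mesenchymal factors that fell numbered 13 with no filter against 5, and those that rose 2 without both low-SNORD3A libraries against 4. The lack of counts leaves depth unmeasured.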
